A study of Mus musculus with 6 samples.

Results

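Heat shock proteins and their DnaJ partners were read out in poly(A) RNA sequencing of natural killer (NK) cells from mouse spleen. The members are the rows of the deposited gene table whose symbol begins with Hspa, Hspb, Hspd, Hspe, Hsph, Hsp90 or Dnaj, together with Hsf1 and Hsf2, and without names that end in -ps and a number. This gave 72 of 27763 rows, of which 71 are annotated as protein-coding and 1, Dnajc19-ps, as a processed pseudogene. The libraries are 3 of DN NK and 3 of cNK. Every library came from the spleen of wild-type C57BL/6 mice aged 6 weeks, and no treatment or engineered allele is named for either group. The labels give neither the surface markers behind the short names nor whether replicate libraries stem from different mice, so a p-value measures only the spread between these libraries.

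Chaperones of the Hsp70 family bind short unfolded stretches of other proteins and release them on an ATP-driven cycle. DnaJ proteins, also called Hsp40 or J-domain proteins, bring clients to Hsp70 and trigger the hydrolysis step, and Hsp110 proteins and other exchange factors reset it. Hsp90 acts later, on kinases, receptors and other clients that are close to their native fold, while Hspd1 and Hspe1 form the folding chamber of mitochondria. Each compartment has its own set, and Hsf1 switches on the heat-inducible cytosolic members by binding heat shock elements, whereas an unfolded protein response controls many of the members in the endoplasmic reticulum (ER). Lymphocytes use both systems when they become active, grow or secrete.

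Levels are given in FPKM, the deposited fragment density scaled to transcript length and library size, so they can be compared between genes. Fold changes are of DN NK over cNK and come from edgeR's quasi-likelihood test on the deposited estimated counts, with Benjamini-Hochberg adjustment over the 11690 rows that reached 1 FPKM in 3 or more of the 6 libraries. A member rose or fell where its adjusted p lay under 0.05. The fitted log2 fold changes lie 0.06 above the log2 ratio of mean FPKM, a median over tested rows, because the fit rescales the libraries. Estimated counts per library ranged from 79798234 to 81437724 in DN NK and from 84270567 to 89526647 in cNK. The 7 NK markers checked (Ncr1, Klrb1c, Klrk1, Eomes, Tbx21, Prf1 and Gzma) were present in all libraries and lower in DN NK. Their summed levels were 1135 to 1378 FPKM in DN NK and 5064 to 5736 FPKM in cNK. Gzma alone held most of the cNK sums, at 3735, 4052 and 4324 FPKM, against 529, 594 and 679 FPKM in DN NK. The 5 B cell markers were all higher in DN NK, at summed levels of 25.2 to 37.7 FPKM against 0.876 to 1.21 FPKM in cNK. Of 5 T cell markers 3 were higher and 2 lay below the filter, with sums of 59.0 to 61.3 FPKM in DN NK and 7.74 to 8.20 FPKM in cNK. No B or T cell marker was at 0 in all libraries of a group. The part of other cells in the differences below was not tested, and in bulk samples fewer cells of a type and less RNA per cell cannot be told apart.

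Of the 72 members 56 passed the filter, and 21 of them rose in DN NK, 16 fell and 19 were not called. That is 66.1% of the tested members, against 61.7% of all tested rows (30.8% higher and 30.9% lower), so the share of members called was near the background. The sizes were also those of the table at large, with a median absolute log2 fold change of 0.37 over the members and 0.37 over all tested rows. Called differences of 2-fold or more were seen for 6 members, 5 higher (Hspa1a, Hspa1b, Hspa2, Hspa5 and Hspa9) and 1 lower (Dnajc9), and for 12.6% of all tested rows. DN NK and cNK libraries were fully separated in FPKM for 41 of the 56 members (73.2%), and for 70.3% of all tested rows. Among the 56, 1 member reached 1 FPKM in all DN NK libraries but not in all cNK libraries, and 3 the other way round.

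**Figure D1:**
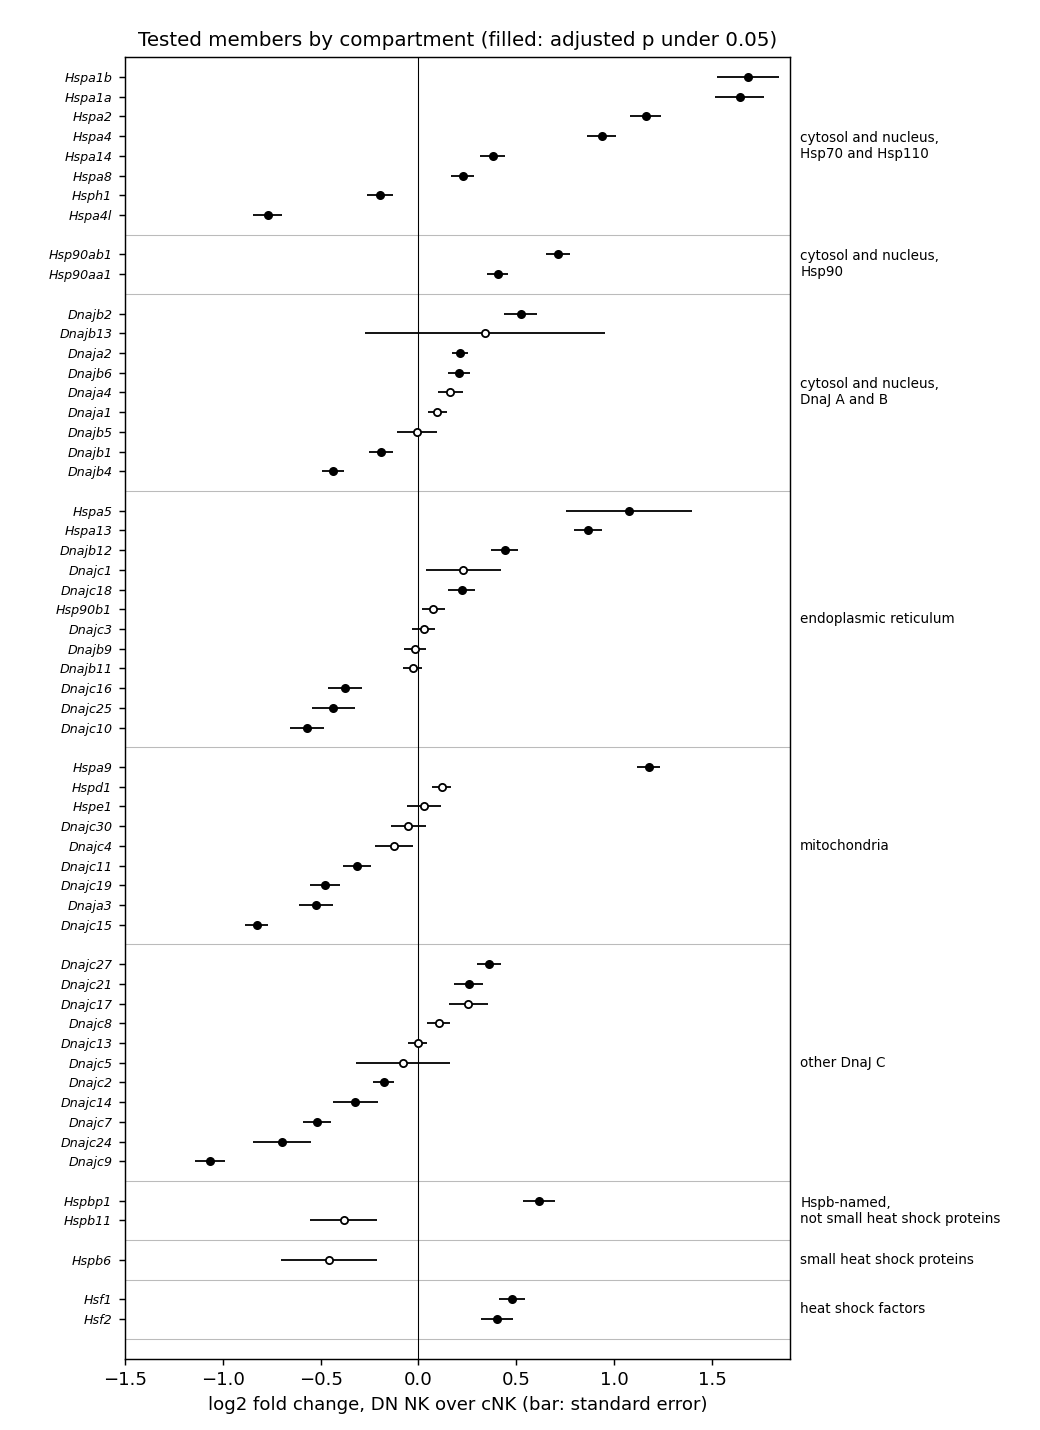
Log2 fold changes of the 56 tested members, DN NK over cNK, grouped by compartment, with bars for the standard error and filled points for members past the threshold. The Hsp70 and Hsp90 classes lie mainly to the right of 0, while most called mitochondrial and other DnaJ C members lie to the left, with Hspa9 at 1.18 as the mitochondrial exception.

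The inducible Hsp70 genes Hspa1a and Hspa1b, the classical products of heat shock, had the highest fitted fold changes of the tested members, though at low levels. Hspa1a stood at 2.44, 2.82 and 2.51 FPKM in DN NK replicates 1, 2 and 3 and at 0.907, 0.795 and 0.892 FPKM in cNK replicates 1, 2 and 3. It was 3.12-fold higher in DN NK (log2 fold change 1.64, SE 0.12, edgeR adjusted p = 1.16e-05). Hspa1b stood at 3.04, 4.49 and 3.63 FPKM in DN NK, against 1.11, 1.34 and 1.17 FPKM in cNK, and was 3.21-fold higher (log2 fold change 1.68, SE 0.16, edgeR adjusted p = 3.45e-05). For either gene every DN NK library lay above every cNK library. With limma on log2(FPKM + 1), which understates changes of low genes, the log2 fold changes were 0.94 for Hspa1a and 1.09 for Hspa1b, both still called, and Hspa9 (1.09) was then no lower than either. Hspa1a passed the filter only through DN NK, since all cNK libraries were under 1 FPKM. These are single-exon genes on the minus strand of chromosome 17 in GRCm38, Hspa1a from 34969190 to 34972156 and Hspa1b from 34956436 to 34959238. The Hspa1a row overlaps that of Gm20481 on the other strand. As near-identical copies they may share reads, so the split between them is uncertain. Their sum, which does not depend on that split, was 5.48, 7.31 and 6.14 FPKM in DN NK against 2.02, 2.13 and 2.06 FPKM in cNK. The ratio of Hspa1b to Hspa1a was 1.43 ± 0.175 in DN NK and 1.40 ± 0.243 in cNK (SD, n = 3 each; 2-sided exact permutation p = 0.9). Even in DN NK the inducible genes together came to only 3.41 ± 0.690% of the level of the constitutive Hspa8, against 1.25 ± 0.0656% in cNK (SD, n = 3 each).

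Promoters of 4 heat-inducible members are shown because genes with a match to either heat shock element pattern differed in their calls. The sequences are the 250 bases before the RefSeq start site in GRCm38.p6, read 5′ to 3′ on the gene's strand, with matches to GAANNTTC or TTCNNGAA in capitals. Each of these letter patterns is its own reverse complement, so both strands are covered, and neighbouring matches can overlap by sharing a unit. The windows are chr17:34972157-34972406 (minus strand) for Hspa1a, chr17:34959239-34959488 (minus strand) for Hspa1b, chr5:149636337-149636586 (minus strand) for Hsph1 and chr1:55087898-55088147 (plus strand) for Hspe1.
Hspa1a: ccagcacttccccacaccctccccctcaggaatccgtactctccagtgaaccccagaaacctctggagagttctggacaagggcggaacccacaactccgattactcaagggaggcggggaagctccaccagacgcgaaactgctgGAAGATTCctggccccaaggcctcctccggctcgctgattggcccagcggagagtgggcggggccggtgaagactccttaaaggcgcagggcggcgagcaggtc
Hspa1b: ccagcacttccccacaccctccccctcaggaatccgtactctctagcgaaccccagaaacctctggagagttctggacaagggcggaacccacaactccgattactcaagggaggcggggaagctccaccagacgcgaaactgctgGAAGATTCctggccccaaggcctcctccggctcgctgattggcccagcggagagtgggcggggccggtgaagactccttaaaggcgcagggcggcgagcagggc
Hsph1: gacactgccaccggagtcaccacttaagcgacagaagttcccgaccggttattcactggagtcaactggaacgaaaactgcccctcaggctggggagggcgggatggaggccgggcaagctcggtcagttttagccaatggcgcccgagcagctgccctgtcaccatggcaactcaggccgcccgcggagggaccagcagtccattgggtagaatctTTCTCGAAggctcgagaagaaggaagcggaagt
Hspe1: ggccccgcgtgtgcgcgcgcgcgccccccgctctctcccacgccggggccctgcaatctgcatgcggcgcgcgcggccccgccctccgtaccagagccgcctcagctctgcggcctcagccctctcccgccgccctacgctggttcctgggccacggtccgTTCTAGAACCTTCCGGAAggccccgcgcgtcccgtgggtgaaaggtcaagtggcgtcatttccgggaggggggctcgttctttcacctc

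RefSeq promoters were found for 57 of the 72 members, and each was searched from 250 bases before to 50 after the start site. Hspa1a and Hspa1b had the same match from -104 to -97 and shared 296 of 300 bases. Hsph1 had a match from -33 to -26 and overlapping ones from 37 to 49 after the start site. Hspe1 had a run of 3 overlapping matches from -89 to -72. A match was present in 6 of 10 heat-inducible members (Dnaja1, Hspa1a, Hspa1b, Hspb1, Hspe1 and Hsph1), in 1 of 6 ER-stress-inducible members (Dnajc10), in 3 of 40 constitutive or other members, and in 15.1% of all 32851 promoters. A run of 3 such units, which contains the shorter pattern, occurred in Hspe1, Hsph1 and Dnajb6, and in 0.603% of all promoters. These counts use the promoter nearest the deposited gene start, and Dnaja4, Dnajb4, Hspd1 and Hspb6 held a match in another of their RefSeq promoters. Of the heat-inducible members with a match, Hspa1a and Hspa1b rose, Hsph1 fell, Hspe1 and Dnaja1 were not called, and Hspb1 lay below the filter. No RefSeq promoter was found for the heat-inducible Hsp90aa1, so it was not searched.

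The heat-inducible members did not move as a block. Their calls were split much like those of all tested rows, of which 30.8% were higher and 30.9% lower. Of 11 such members 10 were tested, 3 rose (Hspa1a, Hspa1b and Hsp90aa1), 3 fell (Dnajb1, Dnajb4 and Hsph1) and 4 were not called (Hspd1, Hspe1, Dnaja1 and Dnaja4), with a median log2 fold change of 0.11 against -0.02 over all tested rows. Hsp90aa1, the stress-inducible cytosolic Hsp90, stood at 132, 124 and 124 FPKM in DN NK, compared with 103, 99.5 and 97.3 FPKM in cNK. The groups did not overlap, and the rise was 1.32-fold (edgeR adjusted p = 0.000239). Dnajb4, a cytosolic J-domain protein, fell by 0.44 on the log2 scale (SE 0.06, edgeR adjusted p = 0.000206). Its levels were 11.6, 10.5 and 10.6 FPKM in DN NK, all under the 14.9, 15.6 and 15.8 FPKM of cNK.

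Dnajb1, the main heat-inducible partner of Hsp70 in the cytosol, stood at 30.9, 33.7 and 30.6 FPKM in DN NK, against 36.7, 40.5 and 36.1 FPKM in cNK. It fell by 0.19 on the log2 scale (SE 0.06, edgeR adjusted p = 0.0251), and the groups did not overlap. Hsph1, the inducible Hsp110 and an exchange factor of Hsp70, stood at 5.99, 6.31 and 6.48 FPKM in DN NK, compared with 6.95, 7.31 and 8.20 FPKM in cNK. It fell by 0.20 (SE 0.07, edgeR adjusted p = 0.0308), again without overlap. Both calls were marginal, and with them the count of 3 lower heat-inducible members, which was 1 without DN NK replicate 1 or 3. The call of Dnajb1 was lost without DN NK replicate 1 or 3 or cNK replicate 2, and that of Hsph1 without any of the 3 DN NK libraries or cNK replicate 3, with edgeR adjusted p up to 0.0812 and 0.0969. Dnaja1, a cytosolic J-domain protein, stood at 26.3, 25.3 and 25.3 FPKM in DN NK, compared with 25.4, 24.0 and 25.6 FPKM in cNK, with overlap (log2 fold change 0.10, SE 0.05, edgeR adjusted p = 0.113). Its relative Dnaja4 stood at 9.65, 9.98 and 10.4 FPKM in DN NK, compared with 9.64, 8.78 and 9.57 FPKM in cNK (log2 fold change 0.16, SE 0.06, edgeR adjusted p = 0.0516). Dnaja4 was called higher with DESeq2, with median-ratio scaling and without cNK replicate 1.

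**Figure D2:**
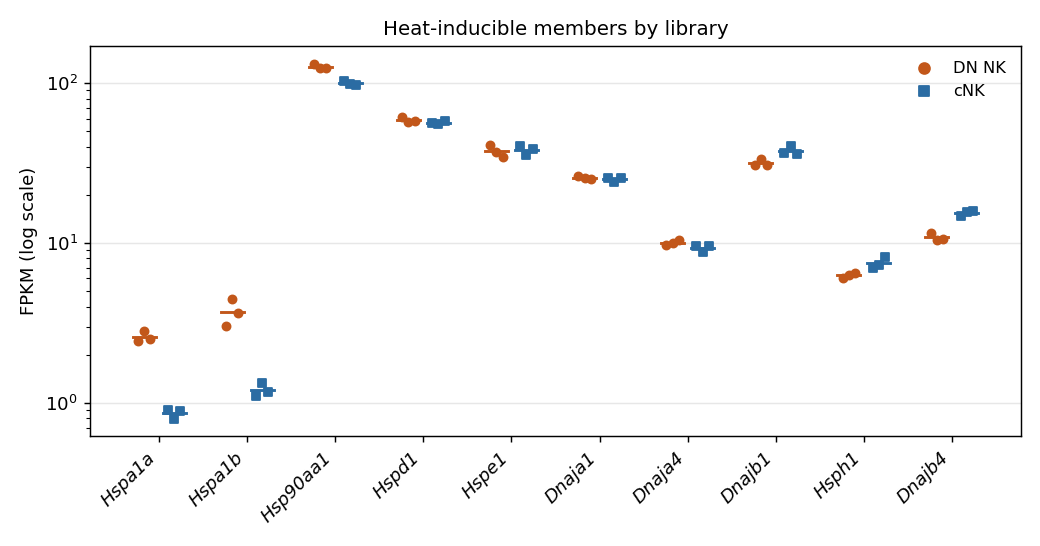
FPKM on a log axis for 10 heat-inducible members in the 3 DN NK and 3 cNK libraries, with a line at each group mean. Hspa1a and Hspa1b are separated most widely, at 2.44 to 4.49 FPKM in DN NK against 0.795 to 1.34 FPKM in cNK, while the groups overlap for Hspd1, Hspe1 and Dnaja1.

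As a type, the constitutive or other members went both ways. Of 51 such members 37 were tested, 14 rose, 12 fell and 11 were not called, with a median log2 fold change of -0.004. The background was 30.8% higher and 30.9% lower over all tested rows. Cytosolic Hsp70 and Hsp90 genes, heat-inducible ones included, were mostly higher in DN NK. In the cytosolic Hsp70 and Hsp110 class 8 of 10 members were tested, 6 rose and 2 fell (1 fell where Hsph1 lost its call). Both cytosolic Hsp90 genes rose. Hsp90ab1, the constitutive Hsp90 and the most abundant member of all in either group, stood at 643, 620.3 and 596 FPKM in DN NK, against 409, 377 and 397 FPKM in cNK. The groups did not overlap, and it was 1.64-fold higher (log2 fold change 0.71, SE 0.06, edgeR adjusted p = 2.44e-05). The ratio of Hsp90ab1 to Hsp90aa1 was 4.89 ± 0.115 in DN NK and 3.95 ± 0.150 in cNK (SD, n = 3 each; 2-sided exact permutation p = 0.1, the smallest that 3 against 3 allows).

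Hspa8, the constitutive Hsc70, stood at 194, 176 and 189.8 FPKM in DN NK, compared with 172, 166 and 160.3 FPKM in cNK. The lowest DN NK library was just above the highest cNK library, and the rise of 1.17-fold (edgeR adjusted p = 0.0103) was not called with upper quartile scaling (edgeR adjusted p = 0.0618). Hspa4, a constitutive Hsp110 that acts as exchange factor, moved opposite to its inducible relative Hsph1. It stood at 59.7, 53.3 and 54.4 FPKM in DN NK, well above the 32.2, 28.0 and 31.1 FPKM of cNK, and was 1.91-fold higher (SE of the log2 fold change 0.07, edgeR adjusted p = 1.57e-05). The ratio of Hspa4 to Hsph1 was 8.94 ± 0.888 in DN NK and 4.08 ± 0.472 in cNK (SD, n = 3 each; 2-sided exact permutation p = 0.1, the smallest possible). The third Hsp110 gene, Hspa4l, fell by 0.77 on the log2 scale (edgeR adjusted p = 4.19e-05), at 0.971, 0.987 and 0.978 FPKM in DN NK against 1.68, 1.86 and 1.69 FPKM in cNK, and passed the filter only through cNK.

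Hspa2, an Hsp70 best known from male germ cells, was 2.23-fold higher in DN NK (log2 fold change 1.16, SE 0.08, edgeR adjusted p = 7.37e-06). It stood at 16.6, 19.2 and 17.9 FPKM in DN NK against 8.94, 7.77 and 8.34 FPKM in cNK, and was thus above Hspa1a and Hspa1b in each library. Hspa14, an Hsp70-like protein that binds ribosomes, rose 1.30-fold, at 19.0, 18.2 and 16.8 FPKM in DN NK against 14.8, 14.5 and 14.0 FPKM in cNK (edgeR adjusted p = 0.00117). Hspbp1, which drives nucleotide exchange on Hsp70 and takes its Hspb prefix from Hsp70 binding rather than from the small heat shock proteins, rose 1.53-fold, at 7.04, 7.45 and 6.98 FPKM in DN NK against 4.87, 4.74 and 4.99 FPKM in cNK (edgeR adjusted p = 0.000295).

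**Figure D3:**
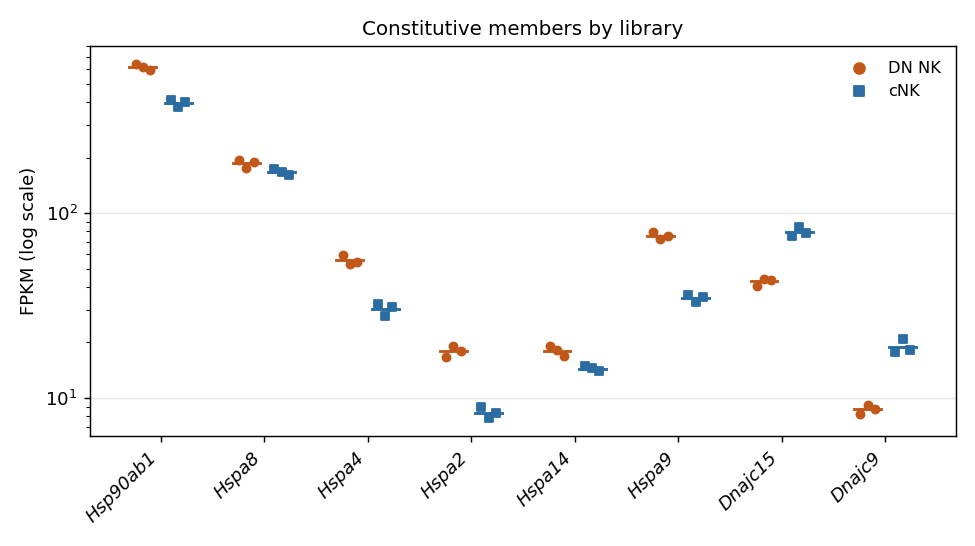
FPKM on a log axis for 8 constitutive members in the 3 DN NK and 3 cNK libraries, with a line at each group mean. Hsp90ab1, Hspa4, Hspa2 and Hspa9 lie higher in every DN NK library than in any cNK library, and Dnajc15 and Dnajc9 lie lower.

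Cytosolic DnaJ proteins of the A and B types, the general Hsp70 partners, differed little. Of 12 members 9 were tested, 3 rose, 2 fell (1 where Dnajb1 lost its call) and 4 were not called. The background was 30.8% higher and 30.9% lower over all tested rows. Log2 fold changes of the 9 tested members ran from -0.44 to 0.52. Dnaja2, the most abundant of them, stood at 68.0, 66.9 and 68.3 FPKM in DN NK, against 60.3, 59.9 and 62.7 FPKM in cNK, a rise of 1.16-fold without overlap (edgeR adjusted p = 0.00192). Dnajb2, known for handing clients to the proteasome, rose most, 1.44-fold, at 3.80, 3.81 and 3.86 FPKM in DN NK against 2.97, 2.63 and 2.72 FPKM in cNK (edgeR adjusted p = 0.000770). Dnajb6, a suppressor of protein aggregation, rose 1.16-fold (edgeR adjusted p = 0.0123), at 30.1, 27.7 and 28.4 FPKM in DN NK against 26.9, 24.7 and 26.3 FPKM in cNK, but was not called with upper quartile scaling or without a filter.

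In the endoplasmic reticulum the members went both ways, with 4 higher, 3 lower and 5 not called among 12 tested of 13. Of the 7 that the unfolded protein response is known to induce, 2 rose (Hspa5 and Hspa13), 1 fell (Dnajc10) and 4 were not called. For the 12 ER members the split was near that of all tested rows (30.8% higher and 30.9% lower). Hspa5 encodes BiP, the ER's Hsp70 and a standard readout of ER stress. It stood at 505, 294 and 491 FPKM in DN NK, compared with 186, 166 and 287 FPKM in cNK. DN NK replicate 2 lay just above cNK replicate 3, and the other libraries were far apart. The rise was 2.11-fold (log2 fold change 1.07, SE 0.32, edgeR adjusted p = 0.0386). It was not called without DN NK replicate 1 or 3 or cNK replicate 1 or 2, nor with edgeR's default filter or no filter, with an edgeR adjusted p of up to 0.121, and its log2 fold change ran from 0.92 to 1.34 over all 16 alternatives. Without DN NK replicate 1 or 3, and with either of those filters, 2 ER members rose in place of 4.

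Hspa5 varied widely within either group. Its coefficient of variation was 27.4% in DN NK and 30.5% in cNK, whereas the medians over the 37 members with a mean of at least 5 FPKM in both groups were 4.81% in DN NK and 5.95% in cNK. In cNK 2 other members also varied widely, Dnajc5 at 33.4% and the ER member Dnajc1 at 25.5%. Hsp90b1, the ER Hsp90 also called Grp94, stood at 111, 103 and 115 FPKM in DN NK, against 102, 109 and 115 FPKM in cNK. These libraries overlap, and it was not called (log2 fold change 0.08, SE 0.06, edgeR adjusted p = 0.288). The ratio of Hspa5 to Hsp90b1 was 4.56, 2.86 and 4.28 in DN NK and 1.83, 1.53 and 2.50 in cNK. The ER J-domain genes Dnajb9, Dnajc3 and Dnajb11, all partners of BiP, had log2 fold changes of -0.02, 0.03 and -0.03 and were not called.

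The promoters of Hspa5 and Hsp90b1 are shown because both hold the ER stress element while only Hspa5 was called. The windows are chr2:34771840-34772089 (plus strand) for Hspa5 and chr10:86705445-86705694 (minus strand) for Hsp90b1, again the 250 bases before the RefSeq start site in GRCm38.p6. Capitals mark CCAAT and CCACG with 9 bases of any kind between them, on either strand.
Hspa5: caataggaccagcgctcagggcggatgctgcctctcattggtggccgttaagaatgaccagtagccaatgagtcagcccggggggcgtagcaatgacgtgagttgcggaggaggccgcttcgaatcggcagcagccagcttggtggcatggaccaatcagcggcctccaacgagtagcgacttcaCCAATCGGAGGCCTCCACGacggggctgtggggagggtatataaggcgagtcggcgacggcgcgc
Hsp90b1: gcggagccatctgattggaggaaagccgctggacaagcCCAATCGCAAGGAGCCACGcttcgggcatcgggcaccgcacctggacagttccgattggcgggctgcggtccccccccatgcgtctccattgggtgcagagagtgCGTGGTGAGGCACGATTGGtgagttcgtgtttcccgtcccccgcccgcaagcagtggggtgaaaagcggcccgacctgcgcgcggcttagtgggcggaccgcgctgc

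Hspa5 had 1 match, from -65 to -47, and Hsp90b1 had 2, from -212 to -194 and from -107 to -89. Among members with a promoter the element was found in Hspa5, Hsp90b1 and Dnajc3, which are 3 of the 6 ER-stress-inducible members with a RefSeq promoter, and in 0 of 10 heat-inducible and 0 of 40 constitutive or other members. It occurred in 0.119% of all promoters. A match describes the letters only.

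Hspa13, a short Hsp70 relative of the ER, had the clearest rise in this compartment. It stood at 22.6, 21.4 and 22.3 FPKM in DN NK, compared with 13.8, 11.6 and 12.5 FPKM in cNK, 1.82-fold higher without overlap (SE of the log2 fold change 0.07, edgeR adjusted p = 1.97e-05). Dnajb12, a J-domain protein of the ER membrane, rose 1.36-fold, at 14.0, 15.2 and 14.7 FPKM in DN NK against 11.2, 12.1 and 10.3 FPKM in cNK (edgeR adjusted p = 0.000714). Dnajc18, also of the ER membrane, had a log2 fold change of 0.22 that was past the threshold here (edgeR adjusted p = 0.0233) and in 6 of the 15 alternatives that tested it. Dnajc10, the ER reductase ERdj5, was lower, at 5.34, 6.78 and 6.31 FPKM in DN NK against 8.95, 10.2 and 9.38 FPKM in cNK, and fell by 0.57 on the log2 scale (SE 0.09, edgeR adjusted p = 0.000601). Dnajc25, a membrane-bound J-domain protein, fell by 0.43 to 2.75 ± 0.273 FPKM in DN NK against 3.87 ± 0.470 FPKM in cNK (SD, n = 3 each; edgeR adjusted p = 0.00773). Dnajc16, also membrane-bound, fell by 0.38, at 2.26, 2.49 and 2.29 FPKM in DN NK against 2.83, 3.41 and 3.29 FPKM in cNK (edgeR adjusted p = 0.00561). The groups did not overlap for any of these 3 lower genes.

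**Figure D4:**
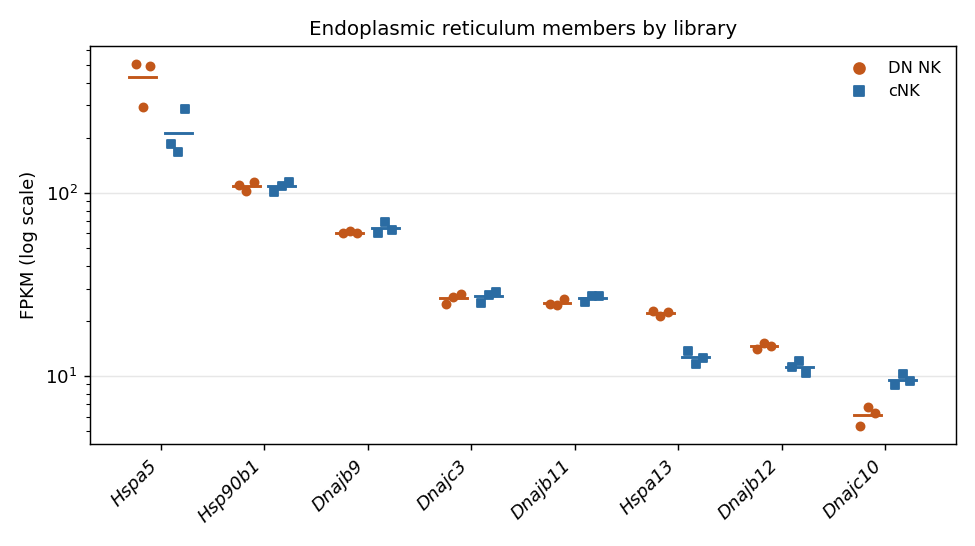
FPKM on a log axis for 8 ER members in the 3 DN NK and 3 cNK libraries, with a line at each group mean. Hspa5 spreads from 294 to 505 FPKM in DN NK and from 166 to 287 FPKM in cNK, Hspa13 and Dnajb12 are separated upward and Dnajc10 downward, and the other 4 genes overlap.

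Of 26 other genes of ER folding and the unfolded protein response, 18 rose, 4 fell and 4 were not called. Among all tested rows the shares were 30.8% higher and 30.9% lower. The median log2 fold change of the list was 0.37 against -0.02 over all tested rows. As the list was chosen with earlier results of these data known, the comparison is a description only. The higher calls of Pdia3, Creld2, P4hb and Manf were lost in 11, 7, 6 and 4 of the 16 alternatives. Without a filter 15 of the 26 genes were higher and 4 lower. Ern1, which encodes the ER stress sensor IRE1 alpha, rose 2.69-fold, at 34.6, 31.2 and 31.6 FPKM in DN NK against 12.8, 13.2 and 11.8 FPKM in cNK (edgeR adjusted p = 8.85e-07). Trib3, a target of the stress factor CHOP, rose 11.9-fold at low level, at 2.07, 2.38 and 1.98 FPKM in DN NK against 0.0862, 0.230 and 0.237 FPKM in cNK (edgeR adjusted p = 4.88e-05), and passed the filter only through DN NK. The log2 fold change of Trib3, 3.57 here, was 1.41 with limma on log2(FPKM + 1), a scale that understates changes of low genes, and 3.03 to 3.79 under the other alternatives that tested it. Txndc5, an ER disulfide isomerase gene, went the other way and fell by 1.51 on the log2 scale, at 9.64, 10.3 and 10.2 FPKM in DN NK against 28.0, 30.8 and 30.8 FPKM in cNK (edgeR adjusted p = 2.20e-07). Of 5 plasma cell markers, whose cells are rich in ER chaperones, 2 were higher (Jchain and Xbp1), 1 lower (Prdm1) and 2 below the filter (Sdc1 and Mzb1). Their sum was 43.9 to 50.3 FPKM in DN NK and 33.9 to 37.5 FPKM in cNK, none was at 0 in all libraries of a group, and Xbp1 is also a member of the ER list. Most of this sum was Xbp1 in either group. Jchain stood at 6.77, 4.03 and 3.78 FPKM in DN NK, against 0.459, 0.598 and 0.322 FPKM in cNK. Sdc1 stood at 0.334, 0.423 and 0.422 FPKM in DN NK, against 0.0765, 0.0797 and 0.0598 FPKM in cNK. Mzb1 stood at 0.862, 0.49 and 0.782 FPKM in DN NK, against 0.188, 0.126 and 0 FPKM in cNK. Prdm1 went the other way, at 4.46, 4.74 and 4.84 FPKM in DN NK against 10.4, 14.7 and 15.1 FPKM in cNK. The part of plasma cells in the ER values was not tested.

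Among the 9 tested mitochondrial members 1 rose, 4 fell and 4 were not called, against 30.8% higher and 30.9% lower over all tested rows. The riser was the Hsp70, and the 4 lower ones were J-domain genes. Hspa9, the mitochondrial Hsp70 also called mortalin, stood at 79.3, 72.1 and 74.9 FPKM in DN NK, compared with 35.9, 33.1 and 35.3 FPKM in cNK. It was 2.26-fold higher without overlap (log2 fold change 1.18, SE 0.06, edgeR adjusted p = 1.49e-06), and was the only riser among 9 tested mitochondrial members of 10. Hspd1 and Hspe1, the mitochondrial Hsp60 and Hsp10, were not called. Hspd1 stood at 61.5, 57.3 and 58.1 FPKM in DN NK, against 56.3, 55.6 and 58.0 FPKM in cNK (log2 fold change 0.12, SE 0.05, edgeR adjusted p = 0.0646). Hspe1 stood at 40.8, 37.2 and 34.4 FPKM in DN NK, compared with 40.7, 35.4 and 39.0 FPKM in cNK (log2 fold change 0.03, SE 0.09, edgeR adjusted p = 0.805).

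Hspd1 and Hspe1 lie head to head on chromosome 1, Hspd1 from 55077835 to 55088243 on the minus strand and Hspe1 from 55088132 to 55091307 on the plus strand, so reads in the short overlap could not be assigned by strand. The ratio of Hspd1 to Hspe1 was 1.58 ± 0.0952 in DN NK and 1.48 ± 0.0920 in cNK (SD, n = 3 each; 2-sided exact permutation p = 0.4). The ratio of Hspa9 to Hspd1 was 1.28 ± 0.0172 in DN NK and 0.614 ± 0.0218 in cNK (SD, n = 3 each; 2-sided exact permutation p = 0.1, the smallest possible).

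Of the mitochondrial J-domain genes 4 fell. Dnajc15, whose protein MCJ sits at the inner membrane and is known to restrain the respiratory chain, stood at 40.5, 44.3 and 43.7 FPKM in DN NK, against 75.2, 84.0 and 78.5 FPKM in cNK. It fell by 0.83 on the log2 scale (SE 0.06, edgeR adjusted p = 9.29e-06), and the groups were far apart. Dnaja3, the mitochondrial DnaJ also called Tid1, fell by 0.52, at 2.83, 3.04 and 3.13 FPKM in DN NK against 4.10, 4.91 and 4.49 FPKM in cNK. Dnajc19, a part of the protein import motor, fell by 0.47, at 2.51, 2.51 and 2.53 FPKM in DN NK against 3.56, 3.66 and 3.74 FPKM in cNK (edgeR adjusted p = 0.000776). Dnajc11, linked to the cristae-organizing complex, fell by 0.31. The rows of Dnaja3 and Dnajc19 overlap other genes, which makes their values less certain. Dnajc4 and Dnajc30 were not called.

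Of the remaining DnaJ C members, whose J domains serve special tasks, 11 of 14 were tested, 2 rose, 5 fell and 4 were not called. For comparison, 30.8% of all tested rows were higher and 30.9% lower. Dnajc9, a histone co-chaperone, had the largest fall of all tested members. It stood at 8.25, 9.12 and 8.70 FPKM in DN NK, compared with 17.7, 20.9 and 18.3 FPKM in cNK, and fell by 1.06 on the log2 scale (SE 0.07, edgeR adjusted p = 7.80e-06). Dnajc24, which takes part in making diphthamide on elongation factor eEF2, fell by 0.70, at 3.20, 3.78 and 2.77 FPKM in DN NK against 6.07, 5.06 and 5.42 FPKM in cNK (edgeR adjusted p = 0.00345). Dnajc7, a J-domain protein that bridges Hsp70 and Hsp90, fell by 0.52, at 14.3, 15.0 and 17.2 FPKM in DN NK against 21.4, 24.0 and 24.1 FPKM in cNK (edgeR adjusted p = 0.000309), and its row overlaps those of Cnp and Nkiras2.

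Dnajc14 fell by 0.32 on the log2 scale, a call lost without any 1 of the 3 cNK libraries (edgeR adjusted p up to 0.120), and its row overlaps those of Ormdl2 and Sarnp. Dnajc2, a ribosome-bound J-domain protein, fell by 0.18, a call lost without DN NK replicate 2 or cNK replicate 2 or 3 (edgeR adjusted p up to 0.0704). The class thus had 3 lower members in place of 5 without cNK replicate 2 or 3. Dnajc27, a Rab-like GTPase with a J domain, rose 1.28-fold, at 5.24, 5.30 and 5.42 FPKM in DN NK against 4.43, 4.13 and 4.39 FPKM in cNK (edgeR adjusted p = 0.00124). Dnajc21, a ribosome maturation factor, rose 1.19-fold, at 9.49, 8.45 and 9.38 FPKM in DN NK against 7.59, 7.64 and 8.63 FPKM in cNK with overlapping libraries, a call lost in 5 of 16 alternatives, DN NK replicate 1 left out among them (edgeR adjusted p up to 0.0668), which leaves 1 higher member in the class. Dnajc8, a spliceosome protein and the most abundant of the class, stood at 46.4, 42.5 and 41.6 FPKM in DN NK, compared with 40.9, 43.7 and 42.1 FPKM in cNK, and was not called (log2 fold change 0.10, edgeR adjusted p = 0.157). Dnajc5, the cysteine string protein of secretory vesicles, stood at 13.6, 13.6 and 13.1 FPKM in DN NK, against 12.3, 11.6 and 20.5 FPKM in cNK, so cNK replicate 3 alone put the groups in overlap. Its log2 fold change was -0.08 (edgeR adjusted p = 0.797), and 0.22 without that library (edgeR adjusted p = 0.0176).

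The small heat shock proteins, ATP-independent holders of unfolded clients that are prominent in muscle and lens, had low levels in either group. Only Hspb6 of the 5 small heat shock genes passed the filter, at 0.554, 1.01 and 0.918 FPKM in DN NK against 1.01, 1.45 and 1.11 FPKM in cNK, and it was not called (edgeR adjusted p = 0.138). Hspb1, a heat-inducible member called Hsp27 in humans, stood at 0.124, 0.135 and 0.410 FPKM in DN NK, compared with 0, 0.119 and 0 FPKM in cNK. Hspb8 stood at 0.264, 0.114 and 0.0559 FPKM in DN NK, against 0, 0.0291 and 0 FPKM in cNK. It held about 21.9 read pairs in DN NK and 1.62 in cNK, a ratio of 14.5 once scaled to library totals. A 95% binomial interval, computed after rounding to whole read pairs, ran from 2.91 to 104. This interval covers counting error only and rests on the approximate worth of 1 read pair.

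In all, 16 members did not pass the filter, and their highest value in any library was 1.06 FPKM. Without a filter 31.3% of 27763 rows were called (15.3% higher and 16.0% lower), and 3 of the 16 members were called. Dnajc6, the neuronal clathrin-uncoating factor auxilin, stood at 0.720, 0.710 and 0.623 FPKM in DN NK, compared with 0, 0.0299 and 0.0149 FPKM in cNK. It was higher by 5.46 on the log2 scale (SE 0.77, edgeR adjusted p = 0.00326), from about 308 read pairs in DN NK and 7.30 in cNK. Dnajb14, a J-domain protein of the ER membrane, was lower by this fit, at 0.344, 0.376 and 0.360 FPKM in DN NK against 0.626, 0.645 and 0.672 FPKM in cNK (log2 fold change -0.85, SE 0.10, edgeR adjusted p = 3.66e-05). Hspb8 was the third (edgeR adjusted p = 0.0326). The other 13 were Dnajb3, Dnajb7, Dnajb8, Dnajc12, Dnajc19-ps, Dnajc22, Dnajc28, Hspa12b, Hspa1l, Hspb1, Hspb2, Hspb9 and Hspbap1, and they were not called.

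Both heat shock factors rose. Hsf1, the master regulator of the heat shock response, stood at 20.3, 22.0 and 21.9 FPKM in DN NK, against 17.1, 15.5 and 15.4 FPKM in cNK, 1.39-fold higher without overlap (SE of the log2 fold change 0.07, edgeR adjusted p = 0.000350). Hsf2, a related factor, stood at 2.31, 2.17 and 2.16 FPKM in DN NK, compared with 1.70, 1.92 and 1.63 FPKM in cNK, 1.32-fold higher (SE 0.08, edgeR adjusted p = 0.00316).

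The helpers of Hsp70 and Hsp90 that are not members went more often down than up. Of 23 co-chaperone genes 22 were tested, 6 rose, 13 fell and 3 were not called. For comparison, 30.8% of all tested rows were higher and 30.9% lower. The median log2 fold change of the list was -0.27 against -0.02 over all tested rows. This list too was chosen with earlier results of these data known, so the comparison is a description only. Bag4, called higher, and Cdc37l1, called lower, lost their calls in 8 and 9 alternatives. Unc45a, an Hsp90-linked myosin chaperone, rose 1.99-fold, at 25.4, 24.4 and 24.2 FPKM in DN NK against 14.4, 11.9 and 12.5 FPKM in cNK (edgeR adjusted p = 1.71e-05). Bag6, which guards hydrophobic clients in the cytosol, rose 1.56-fold (edgeR adjusted p = 5.63e-05). Among the 13 lower genes Fkbp4 fell by 0.64 on the log2 scale (edgeR adjusted p = 7.99e-05). Of 13 other heat-responsive and immediate early genes 11 were tested, 6 rose, 3 fell and 2 were not called, with a median log2 fold change of 0.26. The 3 with the largest changes were Gadd45b, Atf3 and Egr1, stress or activation genes that rose 3.32-fold, 1.96-fold and 1.58-fold. Other such genes went the other way. The 3 lower ones were Dusp1, Fos and Ier5, with log2 fold changes of -0.59, -0.56 and -0.24, and Jun and Ier2 were not called.

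Summed over all members, chaperone transcripts made up 0.712 ± 0.0491% of all FPKM in DN NK and 0.518 ± 0.0182% in cNK (SD, n = 3 each). The 5 most abundant members (Hsp90ab1, Hspa5, Hspa8, Hsp90aa1 and Hsp90b1) held 62.9 ± 2.22% of the members' sum in DN NK and 54.1 ± 1.68% in cNK. The cytosolic Hsp90 class summed to 776, 744 and 721 FPKM in DN NK and to 512, 476 and 495 FPKM in cNK. The ER class summed to 782, 569 and 779 FPKM in DN NK and to 448, 449 and 570 FPKM in cNK, where the lowest DN NK library and the highest cNK library met. Mitochondrial members summed to 237 ± 5.99 FPKM in DN NK and 237 ± 0.983 FPKM in cNK, with Hspa9 higher and Dnajc15 lower (SD, n = 3 each). The cytosolic DnaJ A and B class was as close, at 182 ± 1.19 FPKM in DN NK and 181 ± 1.30 FPKM in cNK (SD, n = 3 each). The other DnaJ C class was lower in DN NK, at 134 ± 1.69 FPKM against 155 ± 6.86 FPKM in cNK. These sums are descriptions of the chosen members and carry no test.

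**Figure D5:**
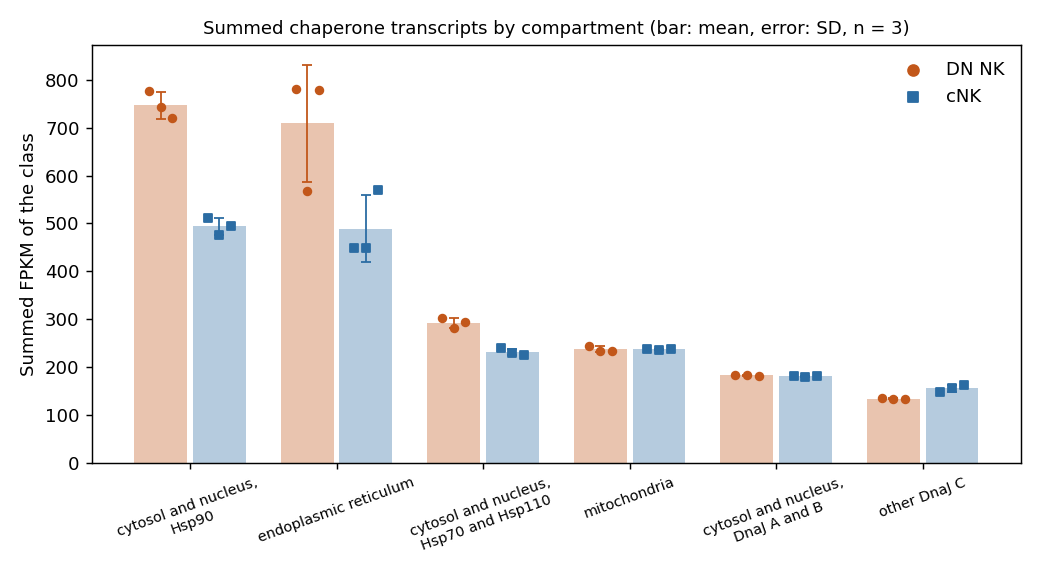
Summed FPKM of 6 compartment classes, with bars for the mean, error bars for the SD and points for the 3 DN NK and 3 cNK libraries. The Hsp90 class stands at 747 FPKM in DN NK against 494 FPKM in cNK, while the mitochondrial and the DnaJ A and B classes are level between the groups.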

How the data were processed

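Per the labels' protocols, poly(A) RNA was taken from Trizol-extracted total RNA, prepared with a TruSeq RNA v2 kit and sequenced as paired reads of 150 bp. This kit marks no strand. HISAT, StringTie, edgeR and the GRCm38 (mm10) build are named, without versions, in the processing notes of the submitters. The table deposited by the authors holds an FPKM value and an estimated count per gene row and library, with replicates not pooled. The deposited counts are whole numbers, but 88.7 to 90.4% of values up to 30, in rows with 1 listed transcript, equal a constant per library times FPKM times length, rounded up. They were therefore taken as estimated counts derived from coverage, with 1 read pair worth about 3.7 of them, an approximate unit.

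Rows that reached 1 FPKM in 3 or more of 6 libraries were tested with edgeR 4.0.16 in R 4.3.3 (TMM factors, robust dispersion and quasi-likelihood, 2-sided, group as the only term). The standard error is the log2 fold change over the square root of F. Calls were made at an adjusted p of 0.05. Motifs were searched in RefSeq promoters (GRCm38.p6). Only the edgeR fit was tested on simulated data, which had a single fixed dispersion and far fewer changed rows than were called here. Of 72 members, 64 have the same span in GENCODE M21, and 31 overlap another row. The members, classes and lists were chosen with earlier results of these data known. Genes given in full were the heat-inducible members, their main counterparts, Hsf1 and Hsf2, the 3 largest called changes in each direction and the most abundant member per compartment, and up to 3 called genes per partner list. Any other member could be named. A single co-chaperone gene that this rule takes is not reported here. Genes shown in plots, and the longer heat shock pattern, were chosen after values were seen. Alternatives tried were other scalings, filters, units and tests (DESeq2 1.42.0, limma 3.58.1 on log2(FPKM + 1) and log2(FPKM + 0.1)), the replicate block, and each library left out.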

Additional observations from a re-analysis of the deposited data

How the results depend on the processing

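Over 16 alternatives, 42 of 56 tested members kept their call in each alternative that tested them, though several that were not called, such as Dnajb13, Hsp90b1 and Hspe1, changed sign, and 28 of the 37 called members kept the call. Leaving out each library in turn gave 18 to 22 members higher and 13 to 15 lower. With upper quartile scaling 17 were higher and 17 lower, and with DESeq2 23 and 16. A stricter filter, a mean of 5 FPKM, tests fewer members and left 15 higher and 9 lower. The median log2 fold change of all tested rows was -0.02, and -0.10 with upper quartile scaling. The single reversal that involved a call was Dnajc5 without cNK replicate 3 (0.22 against -0.08 with all libraries, and -0.23 without cNK replicate 2). The cause was not tested. Dnajc1 was called higher only without cNK replicate 1 (0.47). Same-numbered libraries deviated together only weakly (correlations 0.106, 0.0906 and 0.152), so the numbers were not taken as pairs, although each library correlated best with its own number. With the replicate block, 22 members were higher and 16 lower, and Dnajc17 was added. Low members rest on few read pairs, which limits Hspb1, Hspb8 and Dnajc6.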

Other observations

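Folding machines outside the Hsp70 and Hsp90 systems showed mixed differences. Calls in the lists below stand beside a background of 30.8% higher and 30.9% lower over all tested rows. Of 14 genes of the cytosolic chaperonin CCT and of prefoldin, which fold actin and tubulin, 5 rose, 3 fell and 6 were not called, with a median log2 fold change of 0.05. Pfdn1, a prefoldin subunit, fell by 0.78 on the log2 scale, at 15.3, 15.8 and 15.9 FPKM in DN NK against 25.9, 28.5 and 29.7 FPKM in cNK (edgeR adjusted p = 2.44e-05). Tcp1 and Cct3, both CCT subunits, rose 1.39-fold and 1.28-fold. Upper quartile scaling gave 5 lower genes in this list.

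Of 12 mitochondrial folding and protease genes, 3 rose, 2 fell and 7 were not called, against 30.8% higher and 30.9% lower over all tested rows. Lonp1, the matrix protease, rose 1.48-fold, at 23.7, 21.9 and 23.5 FPKM in DN NK against 17.1, 16.2 and 15.5 FPKM in cNK (edgeR adjusted p = 9.06e-05). Grpel2, an exchange factor of Hspa9, rose 1.46-fold (edgeR adjusted p = 0.000386). Hscb, the J-domain partner of Hspa9 in iron-sulfur cluster assembly, fell by 0.35 on the log2 scale. It went the same way as the called mitochondrial DnaJ genes, which were Dnajc15, Dnaja3, Dnajc19 and Dnajc11. Yme1l1, an inner-membrane protease and the other lower gene, lost its call without DN NK replicate 2 or 3 or cNK replicate 2 or 3, which left 1 lower gene in the list.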
